A study of Parhyale hawaiensis with 10 samples.

Results

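Accessible chromatin of a whole Parhyale hawaiensis embryo at stage 24 was compared with that of a whole embryo at stage 23, the stage just before it. Each stage was represented by 1 embryo and has no replicate. The deposited lists held 119994 peaks at stage 24 and 56606 peaks at stage 23, and peaks that shared at least 1 bp were merged. Merging gave 146482 regions, whereas the 9 nuclei libraries of the series gave 281010 together. A region with a peak at stage 24 and none at stage 23 is called gained, a region with a peak at stage 23 and none at stage 24 is called lost, and a region with a peak at both is called kept. These words describe what the 2 lists hold, and no test between the stages was possible.

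Parhyale hawaiensis is an amphipod crustacean, and all animals came from the Chicago-F inbred line. For each embryo library a single animal was freed of its egg membranes, lysed and tagmented, and another embryo, at stage 20, was treated in the same way. The other libraries were 3 of T4 to T8 legs dissected from pooled embryos of stages 25 to 26, 3 of uninjured adult T4 and T5 legs, and 1 made with naked DNA of an adult in place of nuclei. Embryonic and adult legs differ in age and in leg identity together, and embryonic legs were lysed in another buffer than whole embryos. No gene annotation was used here, so the stage and tissue labels were not checked against marker genes.

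ATAC-seq uses the Tn5 transposase to cut DNA and add adapters, and it cuts most readily where nucleosomes are missing or displaced. In animal genomes such sites are mostly promoters, enhancers and other regulatory sequence, and many enhancers open and close as tissues form. Tn5 also has preferences for certain sequences, and sequence that is repeated in the genome collects extra reads; both show up when naked DNA is cut. In a whole embryo, fewer cells with an open site and less opening per cell cannot be told apart.

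Most of the regions were gained. There were 89965 gained regions (61.4% of the 146482), 27245 lost regions (18.6%) and 29272 kept regions (20.0%). Gained regions covered 24.1 Mb, lost regions 6.40 Mb and kept regions 13.1 Mb. Kept regions held 25.0% of the stage 24 peaks and 51.9% of the stage 23 peaks. Both lists were then held to their 56606 strongest peaks by fold, which is the whole of the stage 23 list. This gave 35393 gained, 35597 lost and 20942 kept regions. Gained and lost counts must be nearly equal there, because the lists are of equal length and kept regions mostly join 1 peak of each.

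The background pileup was higher in the embryo with more peaks. The lists hold no read totals, so read depth is unknown. The background pileup recovered from them, the number of fragments expected at an ordinary position, was 0.555 at stage 24 and 0.233 at stage 23, and it depends on read number and on the length to which reads were extended together. At that background the smallest pileup called was 4 fragments at stage 24 and 3 at stage 23, which is 7.21 and 12.9 times the background. Of the gained regions, 30.1% (95% Wilson interval 29.8% to 30.4%) had a stage 24 pileup below 12.9 times the background, and of the kept regions 12.2% (11.9% to 12.6%). Without stage 24 peaks under that limit there were 62849 gained, 30834 lost and 25689 kept regions. All intervals given cover counting error only. The stage 24 list also had a narrowest peak of exactly 200 bp, against 149 bp at stage 23, and the share of peaks with q no higher than 1e-05 was 62.7% at stage 24 and 27.4% at stage 23. The part of background pileup and peak calling in the gained count was not tested.

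Kept regions were the widest. Their median width was 406 bp (quartiles 334 and 516 bp), against 245 bp (207 and 300 bp) for gained regions and 204 bp (174 and 260 bp) for lost regions. A kept region joins peaks of both lists, and within kept regions the strongest peak had a median width of 333 bp at stage 24 and 268 bp at stage 23. Both medians were larger than those of the peaks called at 1 stage only, which were 245 bp at stage 24 and 204 bp at stage 23. The stage 24 peak was the wider in 69.5% of kept regions. No stage 24 peak was under 200 bp, whereas stage 23 peaks went down to 149 bp. A stage 23 peak under 200 bp was therefore always the narrower, and the part of this in the 69.5% was not tested. Regions over 500 bp made up 27.6% of the kept, 1.60% of the gained and 2.11% of the lost regions.

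The narrowest peak of the stage 24 list bears on the lost regions. No gained or kept region was under 200 bp wide, whereas 12745 of the lost regions (46.8%) were. Leaving out peaks under 200 bp in every list gave 96949 gained, 14500 lost and 22291 kept regions. Gained regions were thus more numerous and lost and kept regions fewer than in the lists as deposited.

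**Figure D1:**
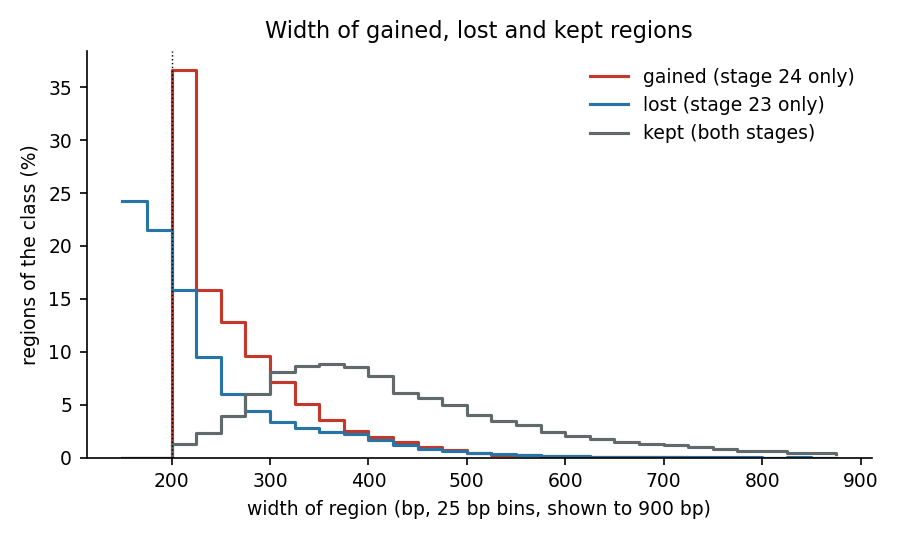
Width of merged regions in bp (bins of 25 bp, horizontal axis) against the percentage of each class (vertical axis), for gained, lost and kept regions; the dotted line marks 200 bp. Gained regions begin at 200 bp, 46.8% of lost regions lie below it, and kept regions have their median at 406 bp.

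Peaks of equal width around each summit gave nearly the same classes. With every summit widened by 250 bp on each side, 143863 regions were formed, of which 87754 were gained (61.0%), 26017 lost (18.1%) and 30092 kept (20.9%). Of the stage 24 summits, 98.6% had the same status, shared or not shared, under both definitions, and of the stage 23 summits 97.9%. Changes were mostly toward sharing: 1632 stage 24 summits and 1164 stage 23 summits were shared only as widened windows, against 109 and 46 that were shared only as whole peaks. Of the gained windows 98.6% and of the lost windows 99.4% were a single window of 501 bp, so the difference in width between classes cannot be read from this definition.

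Summit positions in kept regions were compared between the 2 embryos. The peaks of a kept region overlap by definition, with median widths of 333 bp at stage 24 and 268 bp at stage 23. This rule by itself keeps their summits close, so the distances below are no separate evidence of agreement. Of the 29272 kept regions, 28452 (97.2%) joined 1 stage 24 peak with 1 stage 23 peak, and 724 joined 2 stage 24 peaks with 1 stage 23 peak. Among the 28452, the strongest summits lay a median of 50.0 bp apart (quartiles 20.0 and 110 bp), 50.5% lay within 50 bp and 3.78% lay more than 250 bp apart. The distance was smaller in stronger regions. In the 10% with the highest stage 24 fold it had a median of 22.5 bp and 76.9% of summits lay within 50 bp, against 87.0 bp and 31.1% in the 10% with the lowest.

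The fold of a peak is the authors' value for the pileup at its summit over the expected pileup there, and it ranks peaks within a list. Because the deposited values fit a ratio with 1 added to both pileups, a fold is smaller than the plain ratio of a pileup to the background. Folds of the 2 lists are not on a common scale. Kept regions had a median stage 24 fold of 8.04 (quartiles 5.70 and 11.6), against 5.38 (4.50 and 7.05) in gained regions. In the stage 23 list kept regions had a median fold of 5.28 (4.05 and 7.09), against 3.89 (3.24 and 4.54) in lost regions. The median stage 23 pileup was 17.2 times the background in lost and 30.0 times in kept regions. The smallest pileup called at that background, 3 fragments, was 12.9 times. At stage 23, q was no higher than 1e-05 in 10.1% of lost and 43.5% of kept regions. At stage 24 this held for 56.6% of gained and 81.6% of kept regions. Across the 29272 kept regions the folds of the 2 embryos had a Spearman correlation of 0.49. This is a description over regions, which share local sequence and copy number in both libraries.

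Stronger peaks were shared more often in both lists. Among stage 24 peaks, 11.0% of the weakest 10% (fold 2.00 to 3.86) and 64.4% of the strongest 10% (fold 11.4 to 39.1) lay in a kept region. Among stage 23 peaks, 23.9% of the weakest 10% (fold 2.62 to 3.23) and 88.7% of the strongest 10% (fold 8.11 to 44.8) did. The increase was steady at stage 24 and uneven at stage 23, where, of 10 groups ranked by fold, group 2 had a share of 18.5% and group 5 of 36.9%. Group 2 spanned only folds of 3.23 to 3.24, and equal folds were placed in groups by their order in the list. Of the deposited peaks, 0.738% at stage 24 and 6.77% at stage 23 lay just inside the threshold, with a −log10 q under 1.5; peaks just outside it are not in the lists.

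Naked DNA overlap separated gained regions from the other classes. A naked DNA peak overlapped 11.7% of gained regions (95% Wilson interval 11.5% to 11.9%), 26.0% of lost regions (25.4% to 26.5%) and 27.7% of kept regions (27.2% to 28.2%). Over all 281010 regions of the nuclei libraries the share was 17.1%. Gained regions lay below it and the other classes above it. With both embryo lists at the same length the shares were 10.5% for gained and 27.2% for lost regions. Where q was no higher than 1e-05 in every list, naked DNA included, they were 4.79% and 47.3%. That limit left 19.6% of the naked DNA peaks, so these shares are not on the same footing as those above.

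The 2 lists also differed in how naked DNA overlap went with strength. Among stage 24 peaks outside kept regions, the share overlapping naked DNA was 14.2% in the weakest 10% and 11.3% in the strongest 10%, and lay between 10.5% and 13.3% in the groups between. Among stage 23 peaks in kept regions it was 17.9% in the weakest 10% and 37.9% in the strongest 10%. For stage 24 peaks in kept regions these shares were 35.9% and 23.3%. A higher share in the strongest stage 23 peaks was thus not confined to lost regions. Among stage 23 peaks outside kept regions it was 15.7% in the weakest 10% and 65.5% in the strongest 10%, which were 417 of 637 peaks. Of those 637 strong peaks, 34.2% lay on the 158 long scaffolds, where peaks reach at least 1 Mb, against 95.4% of the weakest 10%. Between these groups the share was uneven, at 70.9% in group 2, 95.8% in group 3 and 46.9% in group 9. Equal folds were placed in groups by the order of scaffold names, so differences between neighbouring groups can come partly from that order. For the strongest unshared stage 24 peaks the long scaffold share was 79.2%, and for the weakest it was 91.9%. The part of sequence preference and of short scaffolds in the lost class was not tested.

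**Figure D2:**
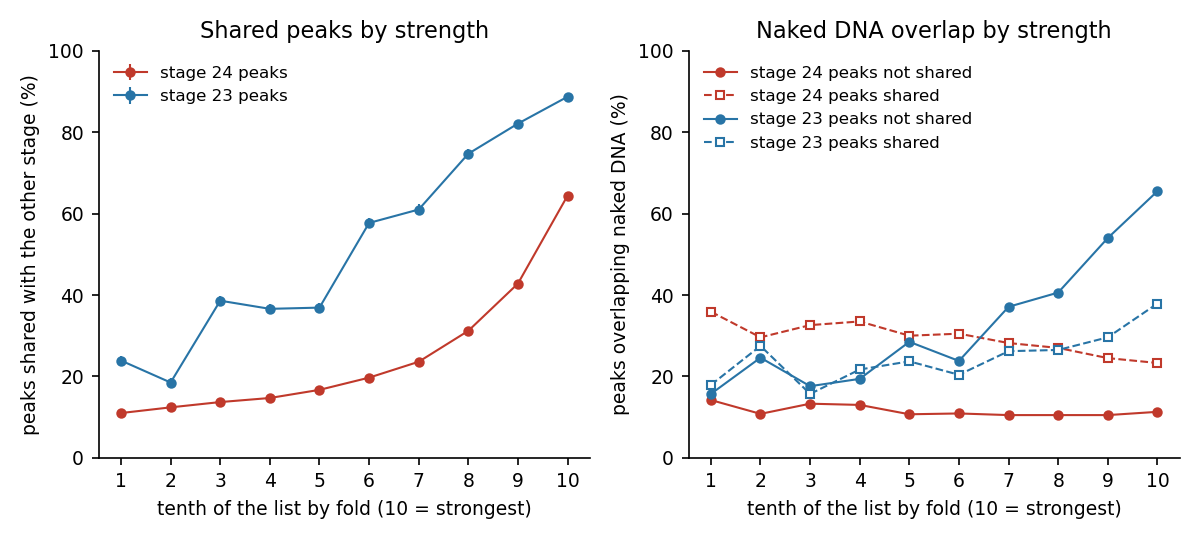
Peaks of each embryo list in 10 groups ranked by fold (horizontal axis, 10 strongest). The left panel gives the percentage of peaks in kept regions with 95% Wilson intervals, which reaches 64.4% at stage 24 and 88.7% at stage 23. The right panel gives the percentage overlapping naked DNA. In the strongest stage 23 peaks it is 65.5% outside kept regions and 37.9% in kept regions.

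Naked DNA overlap also differed between the regions that a single embryo lacked. There were 1384 regions called in all 6 leg libraries, at stage 20 and at stage 24, and missing at stage 23 alone, of which 25.4% (95% Wilson interval 23.1% to 27.7%) overlapped naked DNA and 87.8% lay on long scaffolds. There were 1106 regions called in every nuclei library but that of stage 24, of which 78.3% (75.8% to 80.6%) overlapped naked DNA and 36.2% lay on long scaffolds. The 8156 regions called in all 9 nuclei libraries had a share of 39.6% (38.6% to 40.7%), with 82.1% on long scaffolds. Regions missing at stage 24 alone were therefore mostly cut in naked DNA and mostly on short scaffolds. The smallest p-values of the lists differed as well: the highest −log10 p was 301 at stage 24 and 1011 at stage 23. Of the 223 stage 24 peaks with a −log10 p of at least 100, 38 overlapped naked DNA and 196 lay on long scaffolds. Of the 53 such stage 23 peaks, 51 overlapped naked DNA and 24 lay on long scaffolds.

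The leg libraries took no part in defining the classes and show where else each class was called. Kept regions were called most often: in 73.1%, 71.2% and 81.2% of cases in embryonic legs 1 to 3 and in 63.1%, 49.1% and 50.3% of cases in adult legs 1 to 3. Gained regions were called in 31.2%, 28.7% and 42.1% of cases in embryonic legs and in 21.5%, 11.1% and 10.9% in adult legs. Every embryonic leg library thus held more gained regions than any adult leg library. Lost regions were called in 19.5%, 17.4% and 24.1% of cases in embryonic legs and in 18.8%, 15.6% and 14.6% in adult legs, and here the leg types overlapped.

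Library means were compared with an exact permutation test, two-sided, which cannot give a p under 0.1 with 3 libraries against 3. The share of gained regions was 34.0% ± 7.14 in embryonic and 14.5% ± 6.04 in adult legs (SD, n = 3 each), a difference of 19.5 percentage points with an exact p of 0.100. For lost regions it was 20.3% ± 3.38 and 16.3% ± 2.16, a difference of 4.00 points with an exact p of 0.200 (n = 3 each). For kept regions it was 75.1% ± 5.32 and 54.2% ± 7.77, a difference of 21.0 points with an exact p of 0.100 (n = 3 each). After Benjamini-Hochberg adjustment over 4 such results the exact p was 0.133, 0.200 and 0.133, so none passed a threshold of 0.05. Embryonic leg lists were the longer, with 77357 to 119487 peaks against 48324 to 76268 in adult legs.

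With every leg list limited to its 48324 strongest peaks, a length chosen once the data were known, the leg types parted in opposite directions. Gained regions were then called in 20.5%, 19.9% and 21.8% of cases in embryonic and in 15.4%, 10.9% and 10.9% in adult legs. Lost regions were called in 11.4%, 10.9% and 9.66% of cases in embryonic and in 13.9%, 15.4% and 14.6% in adult legs. The lost regions were thus called less often in every embryonic leg library than in any adult leg library, a difference of −3.98 points, with an exact permutation p of 0.100 (n = 3 each). The leg difference for gained regions was 8.35 points at this length, against 19.5 as deposited. For kept regions it was 10.7 points, with means of 62.3% in embryonic and 51.6% in adult legs, against 21.0 as deposited.

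Gained and lost regions were also compared within each leg library. As deposited, the share of gained regions exceeded that of lost regions by 11.7, 11.2 and 18.1 percentage points in embryonic legs 1 to 3 and by 2.71 in adult leg 1. In adult legs 2 and 3 the difference was −4.47 and −3.76 points. The mean was 13.7 ± 3.81 points in embryonic and −1.84 ± 3.96 points in adult legs (SD, n = 3 each), a difference of 15.5 points with an exact permutation p of 0.100 and an adjusted p of 0.133. Where q was no higher than 1e-05 gained minus lost was negative in every leg library, at −10.6, −10.2 and −3.59 points in embryonic and −22.4, −28.8 and −25.8 points in adult legs, and the leg types still differed by 17.5 points. Without peaks under 200 bp gained minus lost was 1.28, 0.674 and 4.80 points in embryonic and −4.31, −9.36 and −8.11 points in adult legs, and the leg types differed by 9.51 points. The sign in adult legs 2 and 3 turned on long scaffolds, where the values of adult legs 1 to 3 were 6.45, 0.0545 and 0.144 points. It also turned without regions that overlap naked DNA, where they were 6.98, 1.80 and 0.940 points. Which class was called more often within a leg library thus depended on the setting, while embryonic legs exceeded adult legs in each of these settings.

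**Figure D3:**
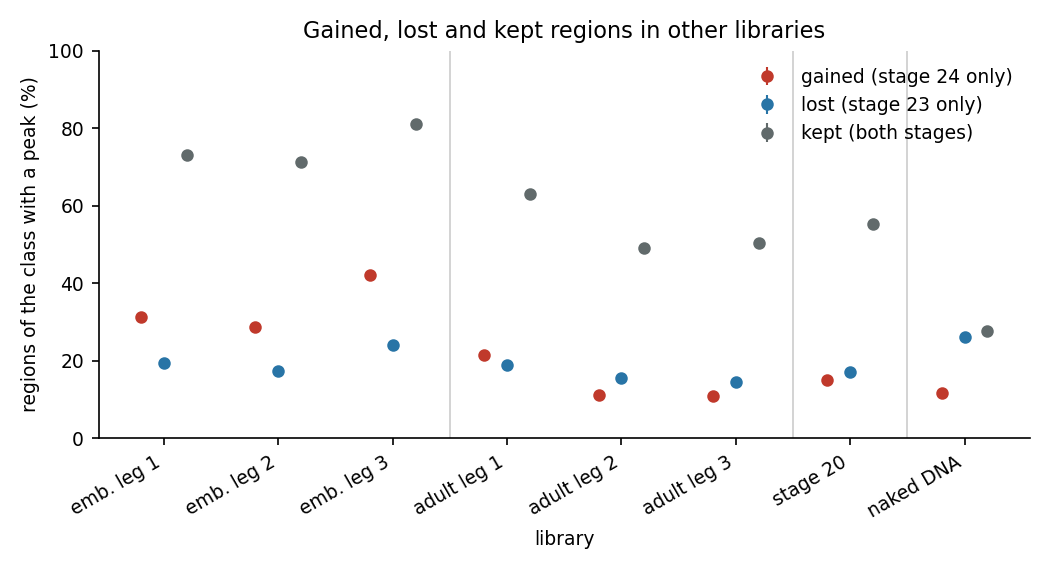
Percentage of gained, lost and kept regions (vertical axis, with 95% Wilson intervals) that have a peak in each of the 3 embryonic leg, 3 adult leg, stage 20 and naked DNA libraries (horizontal axis). Gained regions lie above lost regions in the 3 embryonic leg libraries (an order that turns with q no higher than 1e-05), below them in adult legs 2 and 3 (an order that turns on long scaffolds and without naked DNA overlap), and lowest of all classes in naked DNA.

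Counted over the 6 leg libraries, lost regions were the class most often called in none of them. No leg library held a peak in 46.1% of gained, 61.9% of lost and 10.5% of kept regions, and all 6 held one in 4.19%, 5.53% and 36.0%. Over all 146482 regions these shares were 42.0% and 10.8%, so the gained share in no leg library was near that of all regions. All 3 embryonic leg libraries held 20.5% of gained regions (18470), 11.3% of lost regions (3078) and 63.4% of kept regions (18557). The share was 27.4% over all 146482 regions and 17.5% over the 281010 regions of the nuclei libraries. All 3 adult leg libraries held 5.34% of gained, 7.91% of lost and 39.0% of kept regions. Here the share was 12.5% over all 146482 regions and 7.97% over the 281010 regions. In both leg types the gained and lost shares lay below those of the 146482 regions. Among gained regions, 6251 (6.95%, 95% Wilson interval 6.78% to 7.12%) were called in all 3 embryonic and no adult leg library and 179 (0.199%) in all 3 adult and no embryonic leg library. Among lost regions these counts were 406 (1.49%, 1.35% to 1.64%) and 128 (0.470%). Over all 146482 regions the shares were 6.08% and 0.259%, so the gained shares lay close to those of all regions. The gained regions of the embryonic pattern overlapped naked DNA in 7.37% of cases and the lost regions of that pattern in 16.3%.

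**Figure D4:**
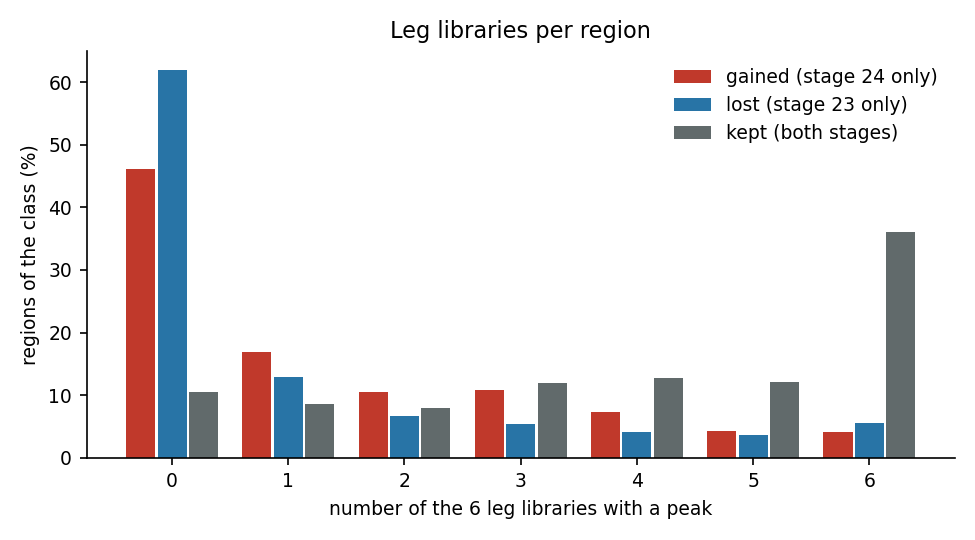
Number of the 6 leg libraries in which a region was called (horizontal axis) against the percentage of gained, lost and kept regions (vertical axis, bars from 0). Regions called in no leg library make up 46.1% of gained, 61.9% of lost and 10.5% of kept regions, and regions called in all 6 make up 36.0% of kept regions.

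Leg calls rose with the strength of a peak in both unshared groups, but their pattern differed. Of the strongest 10% of stage 24 peaks outside kept regions, 86.3% were called in a leg library, 57.9% in all 3 embryonic and 19.4% in all 3 adult leg libraries. Of the strongest 10% of stage 23 peaks outside kept regions, 96.1% were called in a leg library, 73.5% in all 3 embryonic and 70.0% in all 3 adult leg libraries. In the weakest 10% of each list the shares in a leg library were 36.2% at stage 24 and 19.4% at stage 23. These strong stage 23 peaks are the 637 of which 65.5% overlapped naked DNA.

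The stage 20 embryo gave an earlier reading of each class. It held a peak in 14.9% of gained, 17.2% of lost and 55.4% of kept regions. In order of stage, 4682 regions were called at stages 20 and 23 and not at 24, 13436 at stages 20 and 24 and not at 23, and 16220 at all 3 stages. Lost regions that were also called at stage 20 overlapped naked DNA in 61.8% of cases (95% Wilson interval 60.4% to 63.2%), and 54.8% of them lay on long scaffolds. Lost regions not called at stage 20 overlapped naked DNA in 18.5% of cases (18.0% to 19.0%), and 85.9% lay on long scaffolds. Gained regions overlapped naked DNA in 21.8% of cases when called at stage 20 and in 9.90% when not. No other nuclei library held a peak in 38540 gained regions (42.8%), 15896 lost regions (58.3%) and 2475 kept regions (8.46%).

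Regions lay several kb apart in every class. On the 158 long scaffolds, which held 90.8% of gained, 80.6% of lost and 86.7% of kept regions, the gap to the nearest other region had a median of 5.18 kb for gained, 6.51 kb for lost and 5.78 kb for kept regions. A neighbour within 1 kb was found for 12.6%, 15.1% and 13.2% of them. Neighbours tended to be of the same class. On these scaffolds the nearest region was itself lost for 24.7% of lost regions, although lost regions were 17.0% of all regions there. The nearest region was gained for 66.1% of gained regions, against 63.3% of all, and kept for 22.2% of kept regions, against 19.7% of all.

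Few unshared regions were close to a peak of the other stage. A stage 23 peak lay within 250 bp of 1569 gained regions (1.74%) and within 1 kb of 5.18%. A stage 24 peak lay within 250 bp of 1172 lost regions (4.30%) and within 1 kb of 11.1%. At the other side of the overlap limit, 507 kept regions (1.73%) rested on fewer than 50 shared bp, and the median was 211 bp.

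The balance of the classes varied along the genome. Of the long scaffolds, 145 carried at least 100 regions. On these the share of gained regions ran from 42.6% to 84.3% with a median of 61.8%, and that of lost regions from 3.73% to 39.8% with a median of 17.7%. Kept regions varied least, from 11.0% to 28.0% with a median of 19.7%. Scaffold phaw_50.283865d had the highest lost share, with 258 gained, 241 lost and 107 kept regions, and 30.2% of its regions overlapped naked DNA. Scaffold phaw_50.000214e had the lowest, with 231 gained, 11 lost and 53 kept regions, and a naked DNA share of 10.8%. Across the 145 scaffolds the naked DNA share of regions had a Spearman correlation of −0.71 with the gained share and 0.71 with the lost share. This is a description, in which the shares of a scaffold come from the same regions. An exception was phaw_50.283872d, where 33.9% of 112 regions were lost and 8.04% overlapped naked DNA.

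**Figure D5:**
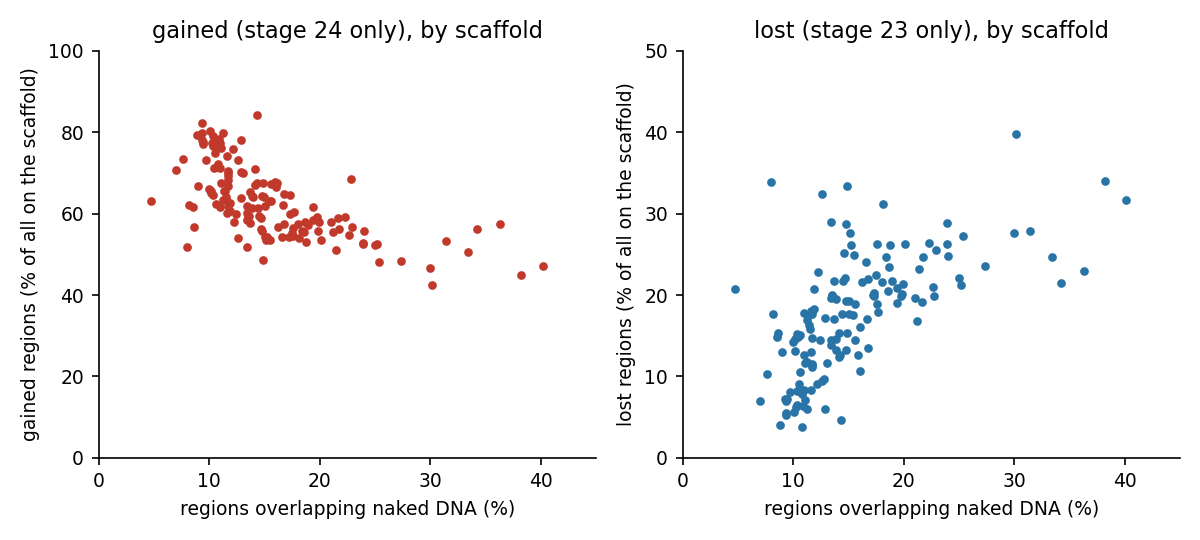
Each point is 1 of the 145 long scaffolds with at least 100 regions, by the percentage of its regions that overlap naked DNA (horizontal axis) and the percentage that were gained (left) or lost (right, vertical axis to 50%). The gained share runs from 42.6% to 84.3% and the lost share from 3.73% to 39.8%; scaffolds with more naked DNA overlap lie lower on the left and higher on the right.

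Windows of 100 kb were ranked by their number of regions of each class. The window with the most gained regions, at 43.9 to 44.0 Mb of phaw_50.283863b, held 22 of them, no lost region and 4 kept regions. Of the 22, 8 were called in all 3 embryonic and 1 in all 3 adult leg libraries, 3 were called at stage 20, and none overlapped naked DNA. The next windows, at 72.9 to 73.0 Mb of phaw_50.283823c and at 0.1 to 0.2 Mb of phaw_50.283873b, held 21 gained regions each, of which 8 and 10 were called in all 3 embryonic leg libraries. The window with the most lost regions, at 9.3 to 9.4 Mb of phaw_50.283865d, held 14 of them beside 1 gained and 2 kept regions. Of the 14, 11 overlapped naked DNA and 8 were called in a leg library. A window at 9.9 to 10.0 Mb of the same scaffold held 10 lost regions, of which 6 overlapped naked DNA. The third, at 9.6 to 9.7 Mb of phaw_50.282543b, held 9, of which 5 did, and was tied with another window. Kept regions were densest in the first 100 kb of phaw_50.000111, with 15. All 15 overlapped naked DNA, 13 were called in all 3 embryonic leg libraries, and 13 in all 3 adult leg libraries. Windows at 3.9 to 4.0 Mb of phaw_50.283842 and at 0.1 to 0.2 Mb of phaw_50.000115 held 12 and 11 kept regions, all of which overlapped naked DNA, and another window tied with the last. Of 36432 windows with a region, 1171 held at least 10 gained, 2 at least 10 lost and 8 at least 10 kept regions.

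Single regions were named among those on long scaffolds that did not overlap naked DNA, by the highest fold. The 8 strongest gained regions had stage 24 folds of 24.1 to 28.1. The first lay on phaw_50.282639a at 11801529 to 11801820, with a fold of 28.1 and a pileup 121 times the background at its summit. It was called in all 3 embryonic leg libraries, in 1 adult leg library and not at stage 20. The second, on phaw_50.007301c at 15257197 to 15257580, had a fold of 26.8 and a pileup 157 times the background. It was called at stage 20 and by all 3 embryonic but no adult leg libraries. The same calls were found for the region on phaw_50.283863b at 45748597 to 45749008 (fold 26.6).

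The remaining gained regions of the 8 were more varied in legs. The region on phaw_50.283873a at 5417307 to 5417714 (fold 25.5) was called in all 6 leg libraries and at stage 20. Regions on phaw_50.283863b at 12462783 to 12463092 (fold 26.8) and on phaw_50.282976d at 5730672 to 5731010 (fold 24.5) were called in all 3 embryonic and 2 adult leg libraries. The region on phaw_50.283743e at 4454314 to 4454644 (fold 26.5) was called in 2 embryonic and 2 adult leg libraries and not at stage 20. The region on phaw_50.283861a at 2020185 to 2020467 (fold 24.1) was called at stage 20 and in no leg library.

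The 8 strongest lost regions had stage 23 folds of 10.7 to 18.2. The first, on phaw_50.282654a at 988645 to 989164, had a fold of 18.2 and a pileup 236 times the background, and was called in all 6 leg libraries. All 6 leg libraries also called the regions on phaw_50.282543a at 1969873 to 1970144 (fold 13.5), on phaw_50.282639a at 16409031 to 16409373 (fold 11.5), on phaw_50.283863b at 1030592 to 1030826 (fold 10.8) and on phaw_50.283823c at 3744427 to 3744787 (fold 10.7). The region on phaw_50.282639a lay 61 bp from a gained region. Regions on phaw_50.001137b at 7006226 to 7006542 (fold 11.0) and on phaw_50.283355b at 9845104 to 9845324 (fold 10.7) were called in all 3 embryonic and 1 adult leg library. The region on phaw_50.283865d at 10490684 to 10491131 (fold 10.8) was called in 1 library of each leg type. At stage 20, 4 of the 8 were called.

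The 8 leading kept regions ranked at or above the 99.5th percentile of both lists. The first lay on phaw_50.283873a at 3518784 to 3519121, with a fold of 23.9 at stage 24 and 22.2 at stage 23. Its summits were at 3518944 at stage 24 and 3518943 at stage 23. The second, on phaw_50.283823c at 7605429 to 7606046, had folds of 23.4 at stage 24 and 20.4 at stage 23, and the third, on phaw_50.283817a at 8507953 to 8508454, had folds of 27.5 at stage 24 and 19.2 at stage 23. The others lay on phaw_50.282639a at 15869786 to 15870376, on phaw_50.282654b at 10524658 to 10525062, on phaw_50.283863a at 1364175 to 1364613, on phaw_50.000203a at 16527301 to 16527786 and on phaw_50.283868d at 14666060 to 14666664. All 8 were called at stage 20 and in all 3 embryonic leg libraries, and 7 of them in all 3 adult leg libraries; the region on phaw_50.283868d was called in 1 adult leg library.

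The 100 strongest regions of each class widen this view. With naked DNA and short scaffolds included, 6 of the 100 strongest gained, 84 of the 100 strongest lost and 62 of the 100 leading kept regions overlapped naked DNA, and 37, 14 and 55 lay on long scaffolds. Among the 100 strongest on long scaffolds without naked DNA overlap, 81 gained, 56 lost and 100 kept regions were called in all 3 embryonic leg libraries. All 3 adult leg libraries called 36, 44 and 90 of them, and 66, 36 and 99 were called at stage 20.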

How the data were processed

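The data are 10 deposited peak lists of ATAC-seq libraries, 1 per library. Per the submitters' processing notes, the tools were MACS2 2.2.7.1, Picard, bedtools 2.31.1, SAMtools 1.21 and Bowtie2 2.5.4, listed without role or order. Genome build, control, threshold and genome size: not given in the sources used here. Fold enrichment, as deposited, is a ratio of pileup to expected pileup at the summit. Nearly all rows of the embryo lists at stages 24 and 23 (100% after rounding) could be solved with 1 added to both. The p-value and the q-value were deposited by the authors as −log10. The deposited score is a display score and was not used. Peak start, end and summit offset are as deposited, and coordinates are printed from 1.

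Rows with the same start and end were taken as 1 peak. Regions were formed with pandas 2.3.3, numpy 2.4.6 and scipy 1.17.1 (Python 3.11.15) and checked against bedtools 2.31.1 and on simulated lists. Whole-number pileups were solved from fold and p-value within 0.002 of −log10 p, or within a wider limit for large values. Pileups above a fixed size were not tried. The most frequent expected pileup is the background; read depth itself is unknown. Shares carry 95% Wilson intervals. The members, lists and tests were chosen with earlier results of these data known. Named regions are the 8 strongest per class, and for kept regions those with the highest lower percentile of their folds; windows are the 3 fullest per class. Whether leg replicates are from separate animals is not said in the labels; the exact tests thus measure only the spread between libraries, which may be technical. Embryonic legs were tested against adult legs by exact permutation, and settings were varied one at a time.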

Additional observations from a re-analysis of the deposited data

How the results depend on the processing

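Counts of regions moved by more than 1.5 times in a few settings. With both embryo lists at the length of the shorter, gained regions numbered 35393. With q no higher than 1e-05 in every list, leg and naked DNA lists included, there were 3737 lost and 11767 kept regions. Without peaks under 200 bp there were 14500 lost regions. In each of the 7 alternatives for it, the overlap with naked DNA was lower for gained than for lost regions. The naked DNA shares of gained, lost and kept regions were 13.0%, 27.4% and 29.1% with widened summits, 4.79%, 47.3% and 20.4% with q no higher than 1e-05, and 10.5%, 27.2% and 25.8% with lists of equal length. They were 12.2%, 31.7% and 30.5% without peaks under 200 bp, 9.42%, 23.5% and 23.6% where 50% of the shorter interval had to be shared, 10.8%, 20.6% and 23.1% on long scaffolds, and 10.3%, 27.1% and 26.4% with stage 24 peaks at the stage 23 enrichment limit, a setting added after seeing the data. The causes were not tested. The difference between embryonic and adult legs kept its direction in all 16 alternatives for gained regions, kept regions and gained minus lost. For these, the 6 settings without 1 leg library could not turn it, because every embryonic value exceeded every adult value. The replicate block, also 1 of the 16, leaves the difference unchanged by construction. For lost regions the direction held in 15 of 16. The lost difference was −3.98 points with every leg list at the length of the shortest, a setting also added later. In that setting the leg difference was 8.35 points for gained and 10.7 for kept regions. Without peaks under 200 bp it was 12.5 for gained regions and 9.51 for gained minus lost. For lost regions it was 7.16 with embryo lists of equal length and 6.27 with q no higher than 1e-05. With 1 leg library left out it was 15.5 to 23.0 points for gained, 2.14 to 5.44 for lost, 17.9 to 25.4 for kept regions and 13.3 to 17.8 for gained minus lost; the lost value of 2.14 came without embryonic leg 3. With the replicate number as a block, the exact sign-flip permutation p was 0.250, the smallest that 3 pairs allow, for each of the 4 differences of 19.5, 4.00, 21.0 and 15.5 points. The leg libraries share only a number: deviations of same-numbered libraries had correlations of −0.027, −0.025 and −0.0059 over regions. With 1 embryo per stage, no setting gives a replicate check of gained or lost regions, and the smallest pileup called, relative to the background, was lower at stage 24 than at stage 23.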
